A study of Mus musculus with 3 samples.

Results

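The mitochondrial ribosomal protein mRNAs are the nuclear transcripts that encode the protein subunits of the mitochondrial ribosome, or mitoribosome. They were taken as the transcripts of class protein-coding with a symbol that starts with Mrpl (large subunit) or Mrps (small subunit) followed by a digit. In all, 28 such genes were listed in at least 1 of 2 deposited tables, among 6505 protein-coding gene symbols listed in either. The study asked which RNAs are bound by Mettl3, the catalytic subunit of the nuclear enzyme that writes N6-methyladenosine (m6A) on RNA, and by Zfp217, a zinc finger protein. RNA immunoprecipitation and sequencing (RIP-seq) was done on nuclear lysate of CCE, a mouse embryonic stem cell line grown without feeder cells on gelatin with serum and leukemia inhibitory factor. No treatment, transgene or mutation is given in the labels. There were 3 libraries, 1 in each group: the Mettl3 RIP, the Zfp217 RIP and the input. No control precipitation with another antibody enters these comparisons.

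The mitoribosome translates the few proteins encoded in mitochondrial DNA, which are core subunits of the respiratory chain and ATP synthase. Its RNAs come from mitochondrial DNA, while its proteins come from nuclear genes, are made in the cytosol and are then imported. Some of its proteins have a counterpart in bacterial ribosomes, and others are found only in mitochondria. The RNA measured here came from a lysate of nuclei, so these mRNAs were sampled in the nuclear fraction and not in the cytosol, where they are translated.

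Each table gave FPKM (read fragments, scaled to transcript length and library size) in a RIP and in the input. The tables held a selection made by the authors, in which every transcript had at least 1 FPKM in the RIP and, with an input above 0, was at least 1.5-fold higher in the RIP. That a member was higher in a RIP than in the input is therefore a property of being listed, and the level of a gene in a table that does not list it was not analysed here. FPKM is relative to the rest of its library, so a ratio of RIP over input is not an absolute amount, and in a lysate of many cells fewer cells with an RNA and less of it per cell cannot be told apart. With 1 library a group there was no replicate error, so no p-value is given. FPKM values of genes with 1 transcript were close to whole multiples of the value of 1 fragment. This put the scaled depth at about 9940000 fragments for the Mettl3 RIP and 7050000 for the Zfp217 RIP. For the input it was 6170000 in the Mettl3 table and 6100000 in the Zfp217 table. Intervals given below are exact 95% intervals of the ratio of 2 counts, estimated from FPKM at these depths and rounded to whole fragments. They cover counting error only, and not the error of dividing reads among transcripts of a gene. Both tables used the same input library, so their ratios are not independent. Of 9 stem cell markers, 5 were listed in each table, Pou5f1, Nanog, Sox2, Klf4 and Esrrb, against 0 of 7 differentiation markers. In the Mettl3 table, their listed transcripts summed to 44.8 FPKM of input for Sox2 and 14.6 for Nanog. Pou5f1 had 1.18 FPKM, Esrrb 0.510 and Klf4 0.00253. Of 5 fibroblast markers, Fn1 alone was listed, in the Mettl3 table, with 14.9 FPKM in the RIP and 6.11 FPKM in the input. A listing rests on the RIP, and unlisted markers have no value here, so these listings do not check the cell type.

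Core letters of the m6A consensus, GGACT, are shown for the members that the ratios rest on, those with at least 1 FPKM in both RIP and input, because Mettl3 is the enzyme that writes this mark. For each such transcript with a match, the first match from the 5′ end is printed with 10 transcript bases on each side and the 5 letters in capitals. The letters were searched on the transcript strand alone, in GENCODE M21 transcripts on GRCm38, and coordinates are on that build. The matches in members listed for Mettl3 were these.
Mrps2 (3′ UTR, chr2:28470788-28470812, plus strand): cccacccagaGGACTgggcgtggat
Mrps25 (3′ UTR, chr6:92174984-92175008, minus strand): catctgggatGGACTggtggcattt
Mrps5 (coding, chr2:127603768-127603792, plus strand): ataccaagctGGACTggcaggacgt
Mrpl19 (3′ UTR, chr6:81961921-81961945, minus strand): cttgatcctgGGACTagtgaatggc
Mrpl1 (coding, chr5:96223956-96223980, plus strand): ttcaagttctGGACTttaccaatcc
Mrps14 (3′ UTR, chr1:160199934-160199958, plus strand): ttgtattcctGGACTagtttccctg

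Mrpl1 and Mrps14 were listed for both proteins. The other members listed for Zfp217 with such levels had these first matches, while Mrps12 and the shorter Mrps14 transcript held no GGACT.
Mrpl28 (coding, chr17:26123783-26123807, plus strand): gtcccagcagGGACTgtggggtgga
Mrpl50 (3′ UTR, chr4:49512704-49512728, minus strand): tcatctcttgGGACTaacggagatt
Mrps18a (3′ UTR, chr17:46128648-46128672, plus strand): agtgggagcaGGACTtctgaagagc
Mrpl36 (5′ UTR, chr13:73331051-73331075, plus strand): agttgattaaGGACTtctccgccgg
Mrps34 (coding, chr17:24895997-24896021, plus strand): aacctggagaGGACTcgaatgcgcc
Mrpl3 (5′ UTR, chr9:105053342-105053366, plus strand): tttgggttggGGACTtgctgaaagc

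GGACT was found at least once in 15 of 17 member transcripts listed for Mettl3 (88.2%), and in 88.7% of all protein-coding transcripts of that table with a sequence. Of the 25 members listed for Zfp217 with a sequence, 19 held it (76.0%), against 84.4% of all such transcripts. The median number per kilobase was 0.962 for members and 0.972 for all transcripts in the Mettl3 table. In the Zfp217 table it was 1.08 for members and 1.03 for all transcripts. Per kilobase, the members thus lay close to the other listed mRNAs in both tables, while the share with a match was lower among members listed for Zfp217. In the mRNAs of cytosolic ribosomal proteins, the share with GGACT was 31.2% for Mettl3 and 44.4% for Zfp217. Lengths differed between these sets. The median in the Mettl3 table was 645.5 bases for these mRNAs, 1234 for members and 3159 for all transcripts. In the Zfp217 table the medians were 680, 1018 and 2393.5 bases. A longer transcript has more places for a match, and the part of length in these shares was not tested. Mrps25 and Mrpl3 held the most among the transcripts printed above, with 7 each, and all 7 of Mrps25 lay in the 3′ UTR. A match is a run of letters and not a measured m6A site.

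Among the members, 15 genes (17 transcripts) were listed for Mettl3 and 22 genes (27 transcripts) for Zfp217. Listed for both were 9 genes, which is 60.0% of the genes listed for Mettl3 and 40.9% of those listed for Zfp217. Over all annotated protein-coding genes, those listed for both were 58.5% of the genes listed for Mettl3 and 72.3% of those listed for Zfp217. The 9 member genes were Mrps6, Mrps14, Mrps17, Mrps18b, Mrps33, Mrpl1, Mrpl24, Mrpl45 and Mrpl55. Listed for Mettl3 alone were 6 genes, Mrps2, Mrps5, Mrps11, Mrps25, Mrpl16 and Mrpl19. Listed for Zfp217 alone were 13 genes, Mrps10, Mrps12, Mrps18a, Mrps21, Mrps23, Mrps26, Mrps34, Mrpl3, Mrpl28, Mrpl36, Mrpl43, Mrpl48 and Mrpl50. A gene absent from a table may have missed 1 FPKM or the 1.5-fold limit there, so an absence does not show a difference between the RIPs.

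GENCODE M21 annotates 78 protein-coding genes with such symbols, of which 15 (19.2%) were listed under an Mrp symbol for Mettl3. Of all 21951 annotated protein-coding genes, matched by gene and not by symbol, 23.6% were listed. A large subunit gene of the 78 was listed for Mettl3 under another symbol, Ict1, with 1.65 FPKM in the RIP and 0.704 FPKM in the input. It is not counted among the 15. For Zfp217, 22 of 78 (28.2%) were listed, against 19.1% of all genes. Both proteins together listed 9 of 78 (11.5%), against 13.8% of all genes. The members' share was thus below that of all genes for Mettl3 and above it for Zfp217. All annotated genes were counted whether or not these cells express them, and unlisted genes have no value here. The members are therefore not compared with expressed genes alone, and against those either order could differ. Cytosolic ribosomal protein genes had shares of the same order, with 18 of 86 (20.9%) for Mettl3 and 26 of 86 (30.2%) for Zfp217. Nuclear genes of the respiratory chain and ATP synthase, which work with the mitochondrial products, had lower shares, with 10 of 86 (11.6%) for Mettl3 and 16 of 86 (18.6%) for Zfp217. These shares are descriptions of 3 libraries with no test. Depth differed between the RIPs, and transcript length differed between the tables as given further on, and their part in these shares was not tested.

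**Figure D1:**
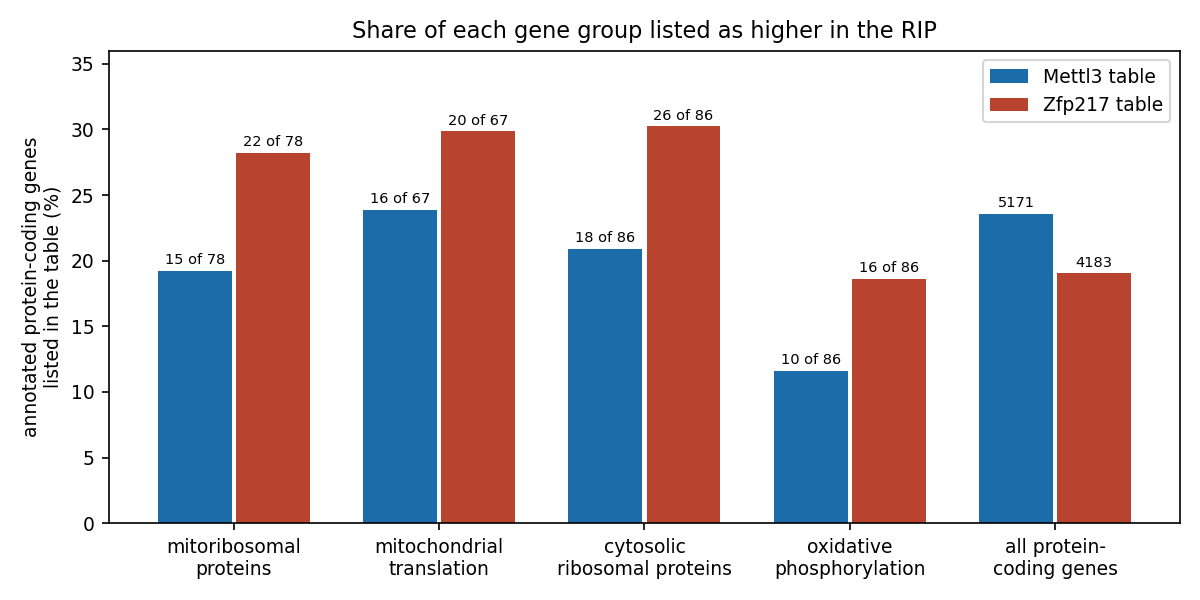
Percentage of the annotated protein-coding genes of each group (x axis) with a protein-coding transcript listed as higher in the RIP (y axis), for the Mettl3 and the Zfp217 table. Mitochondrial ribosomal protein genes, counted by Mrp symbol, stand at 19.2% for Mettl3 and 28.2% for Zfp217, beside 23.6% and 19.1% for all genes. All genes were counted whether or not these cells express them.

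By symbol, 12 of the 28 genes belonged to the large subunit, of 49 annotated (24.5%), and 16 to the small subunit, of 29 annotated (55.2%). For Mettl3, 6 large subunit genes (12.2%) and 9 small subunit genes (31.0%) were listed, and for Zfp217 10 (20.4%) and 12 (41.4%). Ict1, listed for Mettl3 without an Mrp symbol, is not counted in these large subunit shares. Genes with Mrps symbols were thus listed at a higher share in both tables, which share the input, and this difference was not tested. A symbol does not always match the subunit, and Mrps18a is counted here as small subunit by its symbol alone. The large subunit had 2 genes listed for Mettl3 alone, 6 for Zfp217 alone and 4 for both, and the small subunit had 4, 7 and 5. Proteins with a bacterial counterpart made up 18 of the 28, with 5 listed for Mettl3 alone, 7 for Zfp217 alone and 6 for both. The other 10 are specific to mitochondria, with 1 listed for Mettl3 alone (Mrps25), 6 for Zfp217 alone and 3 for both (Mrps33, Mrpl45 and Mrpl55). For 36 of the 78 annotated genes, no transcript of any class was listed in either table.

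Members listed for Mettl3 had 1.17 to 20.3 FPKM in the RIP (median 4.03) and 0 to 9.63 FPKM in the input (median 0.168). On the scale log2((RIP + 1)/(input + 1)), 13 of the 17 transcripts (76.5%) had a Mettl3 RIP value at least 2-fold above the input, against 53.3% of all 6403 protein-coding transcripts listed. The median log2 ratio was 1.14 for members and 1.03 for all. Most of that count came from transcripts with little input: 5 had an input of 0 and so pass by being listed, and 6 had 0.01 to 1 FPKM. With at least 0.01 FPKM in the input, 8 of 12 members passed, against 35.4% of all. Among transcripts with at least 1 FPKM in the input, 2 of 6 members passed, against 34.5% of all. Their median FPKM ratio was 1.81, against 2.07 for all such transcripts. At the median, the better measured members were thus lower over the input than other listed mRNAs of this class, in a set of 6.

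Mrps2, a small subunit protein with a bacterial counterpart, was the most abundant member listed for Mettl3. Its transcript had 20.3 FPKM in the Mettl3 RIP and 9.63 FPKM in the input, or about 391 and 115 fragments, a ratio of 2.11 (1.71 to 2.62). Mrpl1, a large subunit protein whose bacterial counterpart forms the mobile stalk where spent tRNA leaves, had 5.56 FPKM in the Mettl3 RIP and 2.01 FPKM in the input, a ratio of 2.76 (1.95 to 3.96). These were the highest level and the highest ratio among the 6 members with at least 1 FPKM in the input, and both passed the 2-fold rule, Mrps2 narrowly with a log2 ratio of 1.005.

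The other 4 lay between 1.54-fold and 1.86-fold, near the lower limit of the table. Mrps25, specific to mitochondria, had 7.09 FPKM in the Mettl3 RIP and 3.80 FPKM in the input, a ratio of 1.86 (1.54 to 2.28). Mrps14, part of the small subunit head, had 4.05 FPKM in the Mettl3 RIP and 2.31 FPKM in the input, a ratio of 1.75 (1.21 to 2.55). Both levels were below that of Mrps2 in the RIP and in the input. Mrpl19, whose bacterial counterpart lies where the subunits meet, had 4.03 FPKM in the Mettl3 RIP and 2.49 FPKM in the input, a ratio of 1.62 (1.23 to 2.13). Mrps5, whose bacterial counterpart lines the mRNA entry and bears on the accuracy of decoding, had 6.41 FPKM in the Mettl3 RIP and 4.15 FPKM in the input, a ratio of 1.54 (1.23 to 1.94). The counting intervals of these 4 ratios overlapped. All 6 intervals lay above 1, and the selection at 1.5-fold favours this.

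Mrps25 and Mrpl19 share exonic bases with genes on the opposite strand, and the library kit is not stated to keep the strand. Of the Mrps25 transcript, 75.6% of bases lie in exons of Nr2c2, a nuclear receptor gene. Nr2c2 was itself listed for Mettl3, with 6.70 FPKM in the RIP and 3.58 FPKM in the input summed over its transcripts. Reads of Mrps25 and Nr2c2 over the shared stretch cannot be told apart. Mrpl19 shares 39.2% of its bases with Gcfc2, which was not listed in either table.

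Members listed for Zfp217 had 1.17 to 17.5 FPKM in the RIP (median 3.80) and a median input of 0.247 FPKM. Here 16 of the 27 transcripts (59.3%) had a Zfp217 RIP value at least 2-fold above the input on the same log2 scale, against 53.3% of all 5082 protein-coding transcripts listed. The median log2 ratio was 1.17 for members and 1.04 for all. With at least 0.01 FPKM in the input, 6 of 17 members passed, against 25.9% of all. Among transcripts with at least 1 FPKM in the input, 1 of 10 members passed, against 20.7% of all, and the median FPKM ratio was 1.74 for members and 1.87 for all.

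Mrpl28, a large subunit protein with a bacterial counterpart, was the most abundant member listed for Zfp217. It had 17.5 FPKM in the Zfp217 RIP and 11.03 FPKM in the input, or about 115 and 62.2 fragments, a ratio of 1.59 (1.16 to 2.21). Mrps12, whose bacterial counterpart sets the accuracy of decoding, had 11.6 FPKM in the Zfp217 RIP and 5.41 FPKM in the input, a ratio of 2.14 (1.25 to 3.91). On the log2 scale with the added 1 FPKM, Mrps12 reached 0.97 and so just missed the 2-fold rule. Mrpl50, specific to mitochondria, had 11.4 FPKM in the Zfp217 RIP and 7.53 FPKM in the input, a ratio of 1.52 (1.17 to 2.00).

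Mrps18a, which in spite of its name is placed in the large subunit in structures of the mammalian mitoribosome, had 11.3 FPKM in the Zfp217 RIP and 6.25 FPKM in the input, a ratio of 1.82 (1.16 to 3.0). Mrpl36, a small protein of the large subunit, had 10.8 FPKM in the Zfp217 RIP and 6.50 FPKM in the input, a ratio of 1.66 (1.06 to 2.66). These members had few fragments, so their intervals begin near 1. Mrps34, needed in mice for a stable small subunit, had 8.46 FPKM in the Zfp217 RIP and 4.44 FPKM in the input, a ratio of 1.91 (1.10 to 3.32). Its transcript shares 62.7% of its bases with exons of Mapk8ip3 on the opposite strand, which was listed for Zfp217 with 4.43 FPKM in the RIP and 0.815 FPKM in the input summed over its transcripts. Mrpl3, whose bacterial counterpart reaches toward the centre where peptide bonds form, had 5.71 FPKM in the Zfp217 RIP and 3.52 FPKM in the input, a ratio of 1.62 (1.23 to 2.15).

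Mrpl1 and the longer Mrps14 transcript were the members with at least 1 FPKM in the input in both tables. Mrpl1 had 3.98 FPKM in the Zfp217 RIP and 2.03 FPKM in the input, a ratio of 1.95 (1.33 to 2.87), beside 2.76 for Mettl3. The longer Mrps14 transcript had 3.72 FPKM in the Zfp217 RIP and 2.33 FPKM in the input, a ratio of 1.59 (1.07 to 2.37), beside 1.75 for Mettl3. For each, the intervals of both RIPs overlapped. Both ratios divide by the same input library, so this overlap does not compare the RIPs with each other, and that difference was not tested. The shorter Mrps14 transcript was listed for Zfp217 alone, with 3.80 FPKM in the RIP and 1.13 FPKM in the input. This was the 1 member above that passed the 2-fold rule, with a ratio of 3.37 (1.19 to 14.9) that rested on about 17.3 and 4.42 fragments. With FPKM summed over both Mrps14 transcripts, the Zfp217 ratio was 2.17.

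**Figure D2:**
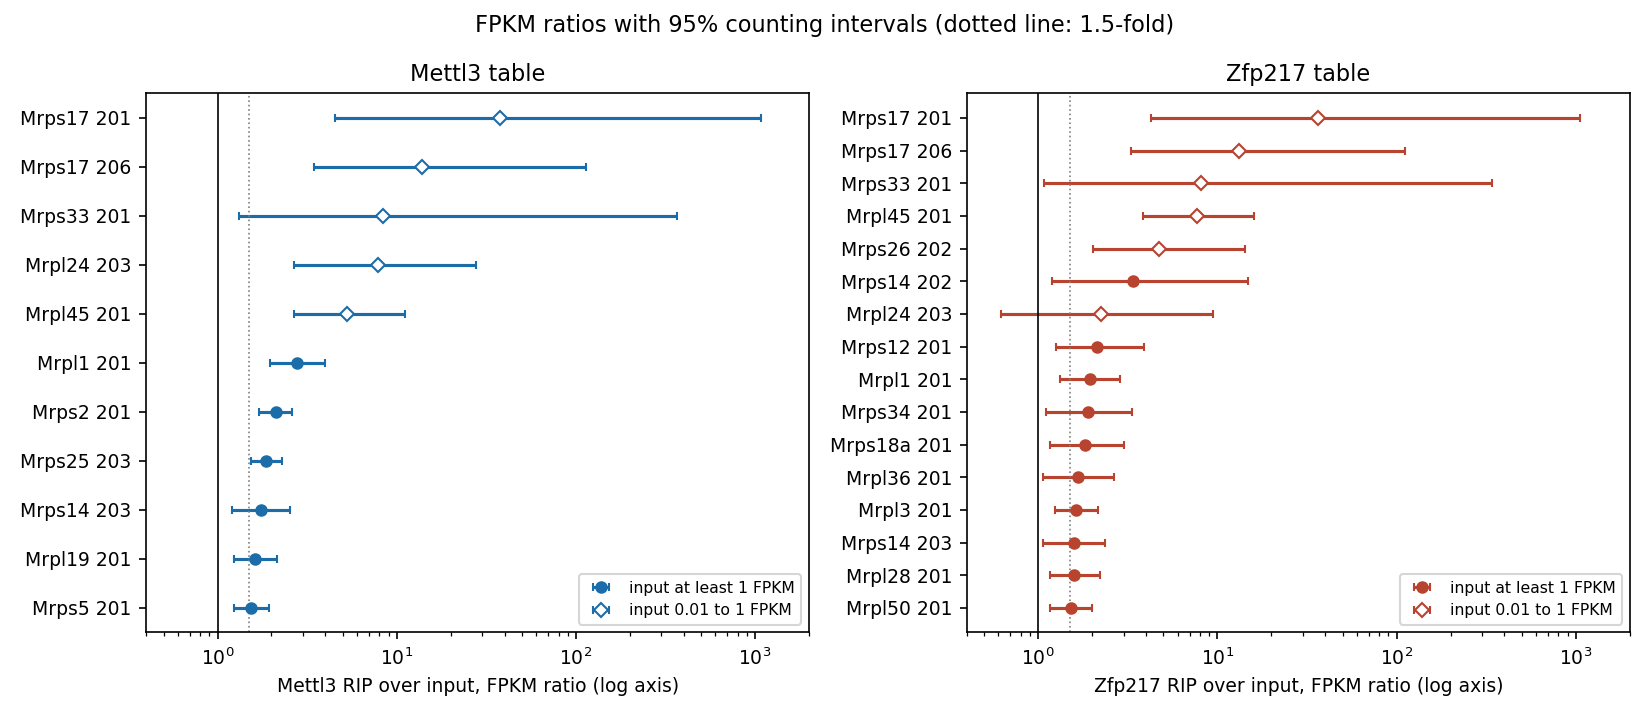
FPKM ratio of RIP over input (x axis, log scale) for each member transcript (y axis) with at least 0.5 of a fragment in the input and a known length, with exact 95% counting intervals. The 6 Mettl3 and 10 Zfp217 members with at least 1 FPKM in the input lie between 1.52 and 3.37, while those with less input reach 37.7 with wide intervals, 4.54 to 1078 for Mrps17-201 in the Mettl3 table.

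Members with 0.01 to 1 FPKM in the input had higher ratios and few input fragments. Mrps17, whose bacterial counterpart binds ribosomal RNA early in small subunit assembly, had several listed transcripts. Its transcript Mrps17-201 had 6.32 FPKM in the Mettl3 RIP and 0.168 FPKM in the input, a ratio of 37.7 (4.54 to 1078). In the Zfp217 table the same transcript had 6.17 FPKM in the RIP and 0.169 FPKM in the input, a ratio of 36.5 (4.29 to 1052). The input value corresponds to about 0.711 of a fragment, so the size of these ratios is hardly fixed. Their direction follows from being listed.

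A second transcript, Mrps17-206, had 2.13 FPKM in the Mettl3 RIP and 2.08 FPKM in the Zfp217 RIP, beside 0.155 and 0.157 FPKM in the input of each table. Mrpl45, which in human structures holds the mitoribosome to the inner membrane, was better measured, with 3.63 FPKM in the Mettl3 RIP and 0.684 FPKM in the input. Its ratio was 5.31 (2.66 to 11.1) for Mettl3 and 7.73 (3.85 to 16.0) for Zfp217, where the RIP had 5.34 FPKM and the input 0.691 FPKM. Its input rested on about 9.64 fragments, the most among members of this range, and both intervals lay above 2-fold.

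Mrpl24, whose bacterial counterpart starts the assembly of the large subunit, had 4.33 FPKM in the Mettl3 RIP and 0.552 FPKM in the input, a ratio of 7.84 (2.66 to 27.9). In the Zfp217 table it had 1.26 FPKM in the RIP and 0.558 FPKM in the input, a ratio of 2.25 (0.621 to 9.41), and this interval includes 1. Its transcript shares 48.1% of its bases with Rrnad1 on the opposite strand. Rrnad1 was listed in both tables, with 2.67 FPKM in the Mettl3 RIP and 0.883 FPKM in the input, and with 1.04 FPKM in the Zfp217 RIP and 0.000282 FPKM in the input. Mrps33, specific to mitochondria, had 1.41 FPKM in the Mettl3 RIP and 1.37 FPKM in the Zfp217 RIP, beside 0.168 and 0.170 FPKM in the input, at about 1 input fragment. Mrps26, listed for Zfp217 alone, had 1.17 FPKM in the RIP and 0.247 FPKM in the input, a ratio of 4.71 (2.03 to 14.3). Mrpl48, likewise listed for Zfp217 alone, had 3.05 FPKM in the RIP and 0.814 FPKM in the input. Mrpl16, a large subunit protein listed for Mettl3 alone, had 5.45 FPKM in the RIP and 0.0188 FPKM in the input, which is 0.118 of a fragment, so no ratio is given.

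Listed at 0 or under 0.01 FPKM in the input were 5 of 17 member transcripts for Mettl3 (29.4%) and 10 of 27 for Zfp217 (37.0%). Of all listed protein-coding transcripts, the shares were 27.7% and 37.1%. The members' shares were close to those of the other mRNAs. Mrps6, a small subunit protein with a bacterial counterpart, led in both RIPs, with 3.95 FPKM for Mettl3, 6.27 FPKM for Zfp217 and 0 FPKM in the input. Mrpl55, specific to mitochondria, had 3.56 FPKM for Mettl3 in transcript Mrpl55-201, 4.59 FPKM for Zfp217 and 0 FPKM in the input.

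Mrps11, whose bacterial counterpart lies near the mRNA exit, had 1.84 FPKM in the Mettl3 RIP, and Mrps17-205 and Mrps18b-208 had 1.20 and 1.17 FPKM there, each with 0 FPKM in the input. In the Zfp217 RIP, Mrpl43, specific to mitochondria, had 4.94 FPKM, Mrps23 had 3.56 FPKM and Mrps18b-202 had 3.38 FPKM, beside 0.00102, 0 and 0 FPKM in the input. The remaining 5, Mrps21, Mrps18b-208, Mrps10, Mrps17-203 and Mrpl55-204, had between 2.28 and 3.10 FPKM in the Zfp217 RIP. All the genes of these transcripts, 5 for Mettl3 and 8 for Zfp217, have more than 1 annotated transcript, so a 0 belongs to 1 transcript and not to the gene. Mrps18b-202 and Mrps18b-208 share 79.5% and 55.0% of their bases with the antisense gene Gm16279. Mrps6 shares 36.1% with Gm49711 and 18.8% with Slc5a3, both on the same strand. Mrps11 shares 16.4% with Mrpl46 on the opposite strand. Reads of these members may be mixed with those of the overlapping genes. The Mettl3 members in this class had 8.19 to 28.2 fragments in the RIP.

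**Figure D3:**
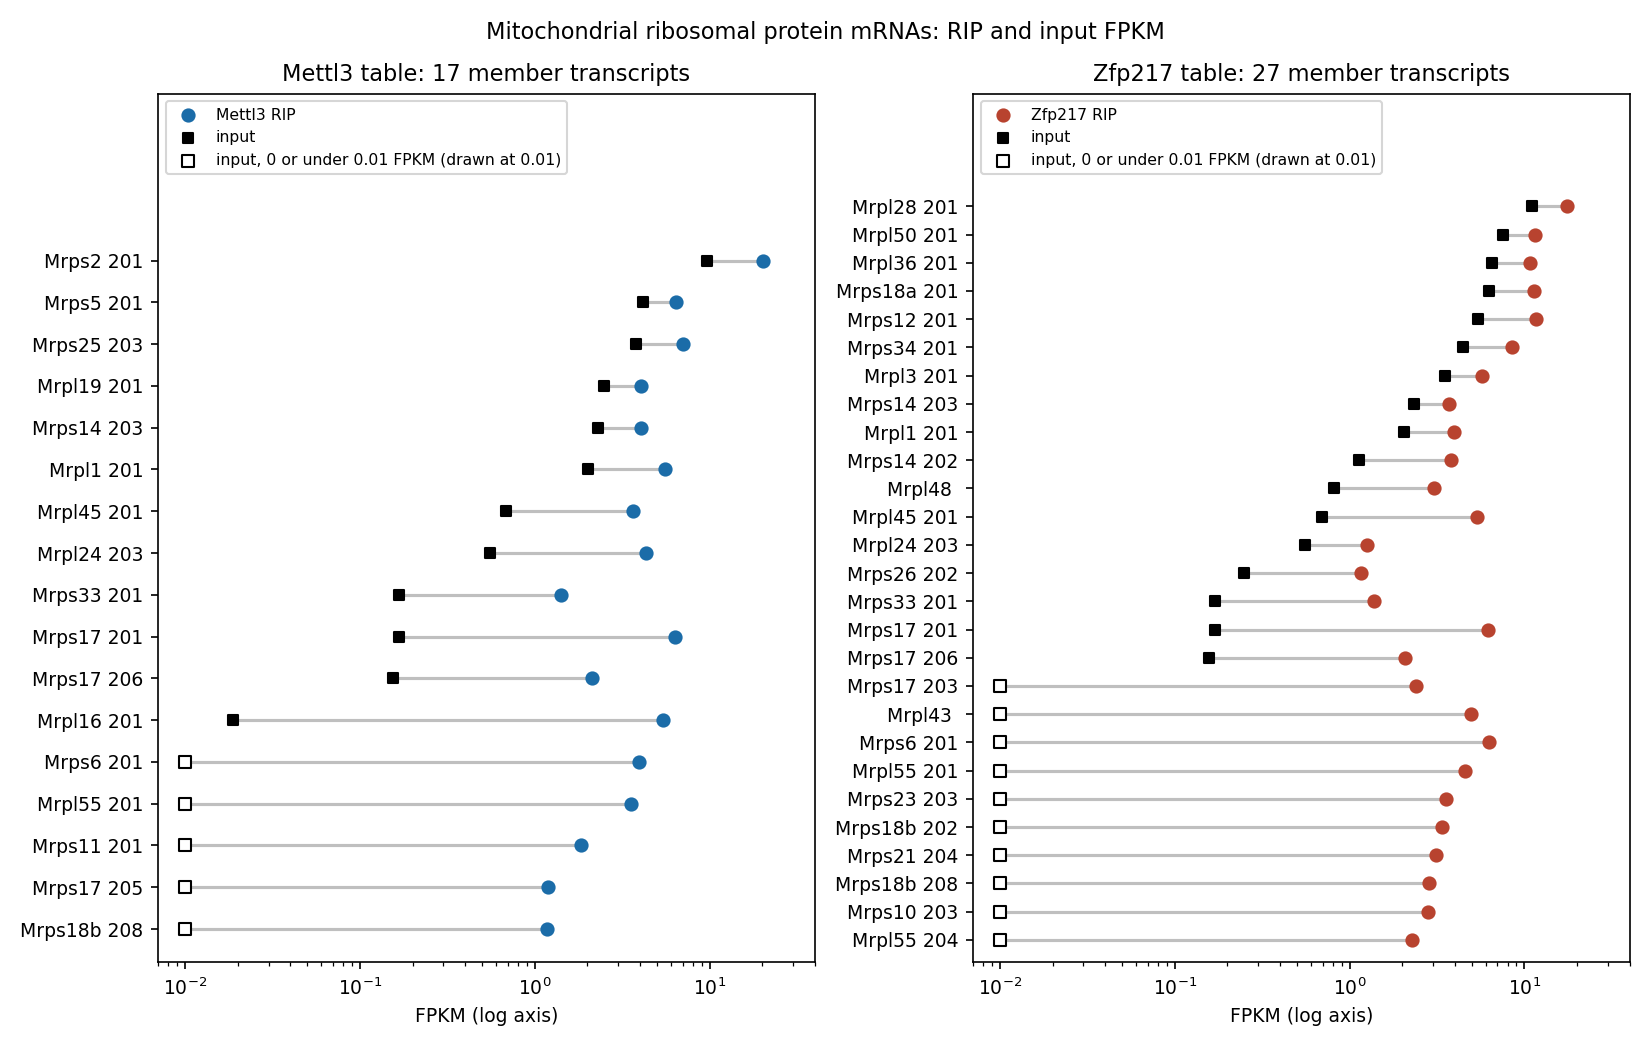
FPKM (x axis, log scale) in the RIP and in the input for each member transcript (y axis), with the 17 transcripts of the Mettl3 table and the 27 of the Zfp217 table in separate panels. Open squares stand for an input of 0 or under 0.01 FPKM, drawn at 0.01, and hold 5 of the 17 and 10 of the 27 transcripts.

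Members listed for Mettl3 alone were longer than those listed for Zfp217 alone. The median transcript length was 2080 bases for the 7 listed for Mettl3 alone, 1170.5 bases for the 10 listed for both and 923 bases for the 15 with a known length listed for Zfp217 alone. The sequence outside the coding region, with medians of 1207, 687.5 and 415 bases, followed the same order. The coding length did not, with medians of 753, 382.5 and 477 bases. With at least 1 FPKM in the input, the median noncoding length was 3654.5 bases for the 4 transcripts listed for Mettl3 alone and 363 bases for the 8 listed for Zfp217 alone, beside 2294 and 704.5 bases over all listed protein-coding transcripts with such input.

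The members with the longest noncoding sequence in that class were Mrps25 with 5560 bases, Mrpl19 with 4124 and Mrps5 with 3185, all listed for Mettl3 alone. An exception was Mrpl3, listed for Zfp217 alone, with 2928 bases. The same order held over all listed protein-coding transcripts, with median lengths of 3447, 2875 and 1842.5 bases and noncoding medians of 1787, 1323.5 and 618.5 bases. The order is thus not particular to these mRNAs. With any input, the members' length and noncoding medians were below those of all transcripts in each class. With at least 1 FPKM in the input, those of the members listed for Mettl3 alone and for both were above them. The median GC content of members was 48.8% for Mettl3 alone, 48.8% for both and 50.9% for Zfp217 alone, beside 47.7%, 49.2% and 52.3% of all transcripts.

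**Figure D4:**
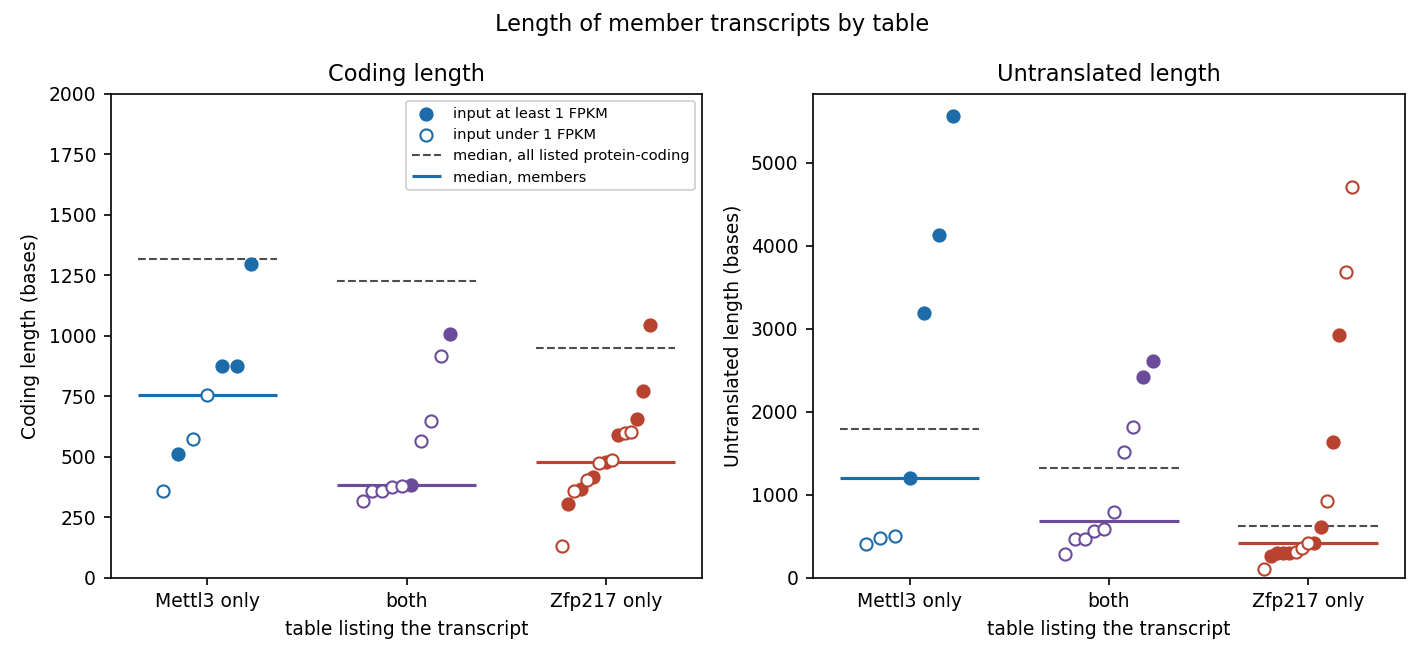
Coding and noncoding length in bases (y axes) of each member transcript, by the table that lists it (x axis), with solid lines at the members' medians and dashed lines at the medians of all listed protein-coding transcripts. Noncoding medians of members were 1207 bases for Mettl3 alone, 687.5 for both and 415 for Zfp217 alone.

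Transcripts of other classes with Mrp symbols were also listed, 17 of 15 symbols for Mettl3 and 21 of 17 symbols for Zfp217. Most were processed transcripts without a coding frame (9 for Mettl3 and 10 for Zfp217) or transcripts with a retained intron (6 and 7). For 12 symbols in each table, no coding transcript of that symbol was listed. Mrpl15, a large subunit gene, had a processed transcript with 14.2 FPKM in the Mettl3 RIP and 4.56 FPKM in the input, a ratio of 3.11, and with 7.96 FPKM in the Zfp217 RIP and 4.61 FPKM in the input, a ratio of 1.72. Mrpl17 had a transcript with a retained intron with 10.98 FPKM in the Zfp217 RIP and 5.34 FPKM in the input, a ratio of 2.06. These transcripts were named after their values were seen.

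Other genes of mitochondrial translation include tRNA synthetases, translation factors, assembly factors and ribosomal subunits without an Mrp symbol. Among 67 annotated genes of this list, 16 (23.9%) were listed for Mettl3 and 20 (29.9%) for Zfp217. Ict1, annotated under another symbol, is not among the 67 or the 16, but its transcript is in the transcript counts below. Of all listed protein-coding transcripts, 53.3% were at least 2-fold higher in each RIP on the log2 scale. Of this list, 13 of 19 transcripts in the Mettl3 table and 16 of 27 in the Zfp217 table were, with medians of 1.04 and 1.10. Of these transcripts, 7 in the Mettl3 table and 14 in the Zfp217 table had an input under 0.01 FPKM. With at least 1 FPKM in the input, 3 of 6 passed for Mettl3 and 0 of 8 for Zfp217, against 34.5% and 20.7% of all. Mars2, the mitochondrial methionyl-tRNA synthetase, had 10.1 FPKM in the Mettl3 RIP and 2.88 FPKM in the input, a ratio of 3.51 (3.02 to 4.11), above that of each of the 6 members with at least 1 FPKM of input in that table. For Zfp217 its ratio was 2.06 (1.74 to 2.45), and this interval lay below that of Mettl3, with the input library shared.

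Grsf1, a mitochondrial RNA-binding protein of the RNA granules, had 18.2 FPKM in the Mettl3 RIP and 7.66 FPKM in the input, a ratio of 2.38 (1.91 to 3.0). Gtpbp10, a GTPase of large subunit assembly, had a ratio of 2.38 (1.77 to 3.21) for Mettl3 and 1.57 (1.13 to 2.19) for Zfp217. Ddx28, an RNA helicase of large subunit assembly, had 1.79 (1.12 to 3.01) for Mettl3 and 2.15 (1.35 to 3.68) for Zfp217. Ftsj2, a methyltransferase of mitochondrial ribosomal RNA, had the highest ratio for Zfp217 among genes of the list with at least 1 FPKM in both libraries, 2.32 (1.20 to 4.78).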

How the data were processed

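Per the labels' protocols, nuclear lysate of CCE cells was incubated with antibody against Zfp217 or Mettl3, and TruSeq RNA libraries were made. The authors deposited FPKM values per Ensembl transcript, for RIP and input, and a log2 fold change that was not used for the ratios here. CASAVA 1.4, Bowtie2, TopHat2 2.0.8, Cufflinks, Cuffdiff and mm9 are named in the submitters' processing notes; what each did is not given in the sources used here. Groups were taken from sample titles. Members, gene lists and rules were chosen with earlier results of these data known.

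From the FPKM values, plain ratios and log2((RIP + 1)/(input + 1)) were computed in Python 3.11.15 (pandas 2.3.3, scipy 1.17.1). No filter was applied, and no ratio is given where the input is under 0.01 FPKM or 0.5 of a fragment. Fragments were estimated from single-transcript genes of GENCODE M21, where 87.2% to 90.3% of low values were whole within 0.15 fragments. The fit was repeated on counts simulated from the fitted depths, which cannot show whether the real values follow that model. Lengths and letters came from M21 on GRCm38, which lacked 2 of the member transcripts. Named in full were members with both values at least 1 FPKM and the 5 with the highest RIP FPKM among those with less than 0.01 FPKM of input. For mitochondrial translation genes, those with both values at least 1 FPKM were eligible, at most the 6 highest and 2 lowest ratios per table. Some genes that this takes are not reported here. All others were chosen after their values were seen. Alternatives were other pseudocounts, filters, folds, transcript classes and gene sums.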

Additional observations from a re-analysis of the deposited data

How the results depend on the processing

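The main counts of members at least 2-fold higher were 13 of 17 for Mettl3 and 16 of 27 for Zfp217, against 53.3% of all listed protein-coding transcripts in each table. The members' median log2 ratios were 1.14 and 1.17. A pseudocount of 3 FPKM left 5 and 8, with medians of 0.70 and 0.72, and one of 0.1 FPKM gave medians of 2.76 and 2.45. With an input of at least 0.01 FPKM, 8 of 12 and 6 of 17 passed, against 35.4% and 25.9% of all, with member medians of 1.08 and 0.80. With an input of at least 1 FPKM, 2 of 6 and 1 of 10 passed, against 34.5% and 20.7% of all, with member medians of 0.68 in both. Then 2 genes and 2 transcripts were shared between the tables in place of 9 and 10. A mean of at least 1 FPKM gave medians of 1.44 and 1.56. With 1 transcript per gene, 11 of 15 passed for Mettl3 and 11 of 22 for Zfp217, and sums over a gene gave the same counts. Both settings gave medians of 1.12 for Mettl3 and 0.996 for Zfp217. With all transcript classes, 27 of 34 and 30 of 48 passed, with medians of 1.34 and 1.20, and 19 genes and 18 transcripts were shared. A 3-fold rule left 5 of 17 for Mettl3 and 12 of 27 for Zfp217. For the other pseudocounts, transcript classes and folds, the mean filter, 1 transcript per gene and gene sums, the share of all was not computed. Listed transcripts at 0 input pass by construction. Of those with 0.01 to 1 FPKM in the input, 6 of 6 passed for Mettl3 and 5 of 7 for Zfp217. Of all listed protein-coding transcripts with at least 0.01 FPKM in the input, 1638 of 4628 passed for Mettl3 and 827 of 3198 for Zfp217. With at least 1 FPKM, 1070 of 3100 and 409 of 1980 did. These sets differ by the range between, where members thus passed at a higher share than all listed transcripts. This difference was not tested, and members of that range had few input fragments.

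No paired analysis was possible because each group had 1 library, and leaving out a replicate was not possible for the same reason. The ratios cover 1 library a group, so the spread between cultures is unknown. Fragment numbers of genes with several transcripts are estimates.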
